A study of Homo sapiens with 28 samples.

Results

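The nuclear genes for the subunits of the mitochondrial respiratory chain and of ATP synthase were examined in chromatin immunoprecipitation sequencing (ChIP-seq) peak lists from T47D cells. T47D is an established breast cancer line of luminal type. Members were taken by symbol: the NDUFA, NDUFB, NDUFC, NDUFS and NDUFV families with NDUFAB1 (complex I, 37 genes), SDHA to SDHD (complex II, 4), CYC1 and the UQCR family (complex III, 10), the COX4 to COX8 families with COXFA4 (complex IV, 18), and the ATP5F1, ATP5M and ATP5P families (complex V, 18). This gave 87 of 19817 protein-coding genes on chromosomes 1 to 22 and X. The readthrough genes NDUFC2-KCTD14 and ATP5MF-PTCD1 were left out.

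Complexes I and II pass electrons from NADH and from succinate to ubiquinone, complex III passes them on to cytochrome c, and complex IV reduces oxygen. Complexes I, III and IV pump protons across the inner mitochondrial membrane, and complex V, the ATP synthase, uses the resulting gradient to make ATP. Most subunits are encoded in the nucleus, and their promoters are known to be bound by NRF1, by the ETS family factor GABP and by YY1. In low oxygen, hypoxia-inducible factors are known to shift cells from respiration to glycolysis and to change the isoform composition of complex IV.

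The peak lists came from hypoxic and normoxic T47D cells immunoprecipitated for ZHX2 (a zinc finger and homeobox protein), CTCF (a DNA-binding protein of chromatin loop anchors) or H3K27ac (acetylated lysine 27 of histone H3, a mark of active promoters and enhancers), and from hypoxic T47D cells immunoprecipitated for Flag-tagged ZHX2 in a form labelled PA, a mutant, or in the wild-type form, labelled WT. Of 28 samples, 16 made up these 8 immunoprecipitated groups of 2, and 12 had no antibody. Cells carrying lentiviral vectors were selected with hygromycin or puromycin, per the labels, which give no oxygen level, no duration of hypoxia and no clone. Each group of 2 had 1 peak list without values per sample or read depth, so no difference between hypoxia and normoxia or between PA and WT could be tested, and all are given as values. A peak was assigned to every gene with an annotated end no more than 1 kb away. Fold is the authors' enrichment of a peak over background. Its percentile is the share of peaks in the same list with an equal or lower fold, the peak itself included. Folds and percentiles come from lists of different length and show no change between conditions. H3K27ac peaks lay at 10 of 10 luminal marker genes in both conditions, at 2 of 5 basal, 1 of 5 immune and 1 of 4 stromal marker genes.

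To show promoters that hypoxia ZHX2 peaks reached, the promoter of 1 gene per complex was chosen as the member with the highest hypoxia ZHX2 fold over its promoter window, and COX4I1, the common isoform of the oxygen-responsive COX4 pair, was added. Each run is 300 bases from RefSeq (GRCh38.p14), from 250 bases before the annotated start, and is written 5′ to 3′ on the gene's strand. Capitals mark exact matches on either strand to NRF1 (GCATGCGC), ETS or GABP (CCGGAAG), YY1 (AAGATGGCG) or the core of a hypoxia response element (ACGTG). The matches share no letters in these windows.
NDUFS6 (chr5:1801157-1801456, plus strand): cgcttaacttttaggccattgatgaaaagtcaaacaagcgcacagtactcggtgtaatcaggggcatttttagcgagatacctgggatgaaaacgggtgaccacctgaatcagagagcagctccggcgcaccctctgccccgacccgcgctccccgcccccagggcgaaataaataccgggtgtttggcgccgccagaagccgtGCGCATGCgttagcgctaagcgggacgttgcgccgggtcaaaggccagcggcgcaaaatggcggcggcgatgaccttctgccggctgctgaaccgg
SDHB (chr1:17053983-17054282, minus strand): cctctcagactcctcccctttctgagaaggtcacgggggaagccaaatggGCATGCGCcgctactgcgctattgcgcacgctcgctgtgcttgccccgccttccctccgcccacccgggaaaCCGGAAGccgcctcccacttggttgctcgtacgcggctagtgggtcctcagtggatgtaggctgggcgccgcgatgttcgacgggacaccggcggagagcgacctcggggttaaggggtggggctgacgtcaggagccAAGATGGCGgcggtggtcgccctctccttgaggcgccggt
UQCRH (chr1:46303448-46303747, plus strand): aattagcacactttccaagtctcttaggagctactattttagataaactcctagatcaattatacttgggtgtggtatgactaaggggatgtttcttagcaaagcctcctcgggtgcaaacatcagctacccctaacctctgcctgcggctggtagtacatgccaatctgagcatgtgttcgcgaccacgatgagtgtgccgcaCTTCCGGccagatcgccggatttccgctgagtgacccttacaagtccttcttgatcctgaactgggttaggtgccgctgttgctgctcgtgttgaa
COX5A (chr15:74938024-74938323, minus strand): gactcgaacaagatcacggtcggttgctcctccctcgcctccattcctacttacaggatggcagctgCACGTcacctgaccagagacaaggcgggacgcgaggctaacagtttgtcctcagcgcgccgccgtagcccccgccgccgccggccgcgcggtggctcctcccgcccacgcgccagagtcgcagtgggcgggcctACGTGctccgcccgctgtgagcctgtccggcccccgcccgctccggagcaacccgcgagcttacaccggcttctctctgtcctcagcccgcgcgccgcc
ATP5PD (chr17:75046920-75047219, minus strand): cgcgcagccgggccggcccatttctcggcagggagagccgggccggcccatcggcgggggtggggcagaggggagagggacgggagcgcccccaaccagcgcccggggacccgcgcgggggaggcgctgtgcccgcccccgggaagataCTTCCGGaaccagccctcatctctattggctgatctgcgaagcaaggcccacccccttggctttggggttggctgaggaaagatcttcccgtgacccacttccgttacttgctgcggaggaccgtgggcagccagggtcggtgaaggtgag
COX4I1 (chr16:85799445-85799744, plus strand): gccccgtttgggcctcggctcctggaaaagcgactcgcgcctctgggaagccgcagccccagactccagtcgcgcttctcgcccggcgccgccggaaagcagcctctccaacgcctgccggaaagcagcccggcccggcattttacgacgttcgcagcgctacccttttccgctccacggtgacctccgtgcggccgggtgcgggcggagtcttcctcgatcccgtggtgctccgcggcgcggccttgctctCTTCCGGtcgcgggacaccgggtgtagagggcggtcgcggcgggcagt

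These 6 windows differ in which letters they hold. NDUFS6 has an NRF1 match at bases 205 to 212 of the window, and its hypoxia ZHX2 summit lies at base 289. SDHB, the iron-sulfur subunit of complex II, has an NRF1 match at bases 51 to 58, an ETS match at 123 to 129 and a YY1 match at 261 to 269. UQCRH, ATP5PD and COX4I1 each have 1 ETS match, at bases 205 to 211, 150 to 156 and 253 to 259. COX5A has none of these and holds the hypoxia core at bases 68 to 72 and 202 to 206, on either side of its ZHX2 summit at base 136. The COX4I1 summit lies at base 160, and the summits of SDHB, UQCRH and ATP5PD lie outside the printed bases. The peak covers the whole window at NDUFS6, UQCRH, COX5A and COX4I1, bases 67 to 300 at SDHB and bases 1 to 147 at ATP5PD. The NRF1 match of SDHB and the ETS match of ATP5PD are therefore not under the peak.

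Across the 67 members with a promoter window at the annotated start, NRF1 letters occurred in 11 (16.4%, against 4.45% of 13792 protein-coding promoters), ETS letters in 19 (28.4%, against 14.6%) and YY1 letters in 7 (10.4%, against 2.87%). At least 1 of these motifs was present in 29 member promoters (43.3%, against 20% of all). Promoters of genes with a normoxia H3K27ac peak had shares of 5.94% for NRF1, 20.2% for ETS and 4.13% for YY1. The hypoxia core occurred in 16 member promoters (23.9%), near the 24% of all promoters and below the 27.1% of those with H3K27ac. The CTCF core AGGGGGCGC occurred in 2 (2.99%, against 2.53% of all promoters). Median GC content was 61.3% in member windows and 62.7% in all windows.

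A hypoxia ZHX2 peak covered 47 of the 67 member windows (70.1%), against 48.9% of all windows and 69.2% of windows of genes with H3K27ac. NRF1 letters were present in 8 of the 47 covered member windows (17%) and in 3 of the other 20 (15%). ETS letters were present in 15 of the 47 (31.9%) and in 4 of the 20 (20%), YY1 letters in 6 (12.8%) and in 1 (5%), and the hypoxia core in 12 (25.5%) and in 4 (20%). Of all 6746 protein-coding windows under a hypoxia ZHX2 peak, 5.77% held NRF1 letters, 21.3% ETS letters, 5.5% YY1 letters and 28.8% the hypoxia core. With 20 uncovered member windows, the shares of covered and uncovered members differ by few genes. The matches are letters in a window, not sites of binding.

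ZHX2 peaks lay at 62 of the 87 subunit genes in hypoxia (71.3%, against 56.3% of all protein-coding genes) and at 35 in normoxia (40.2%, against 29.7%). Peaks were present in both conditions at 33 members (37.9%, against 27.8%), in hypoxia alone at 29 (33.3%, against 28.5%), in normoxia alone at 2 (2.3%, against 1.85%) and in neither at 23 (26.4%, against 41.9%). The hypoxia list held 32343 peaks and the normoxia list 14586. With both lists cut to the same number of peaks by score, 53 members held a hypoxia peak and 35 a normoxia peak, 22 of them in hypoxia alone and 4 in normoxia alone. No share of all protein-coding genes is given at that cut, so these counts have no background beside them. The number of members in hypoxia alone thus moved with the length of the list, and how much of it list length accounts for was not tested.

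Most member genes carry H3K27ac, and the comparison with other such genes gave closer shares. Among the 78 members with a normoxia H3K27ac peak, 62 held a hypoxia ZHX2 peak (79.5%, against 80.7% of the 12755 protein-coding genes with that mark) and 34 a normoxia ZHX2 peak (43.6%, against 41.1%). Peaks in hypoxia without normoxia lay at 29 of them (37.2%, against 40.9%). The ZHX2 shares of the subunit genes were therefore near those of other H3K27ac-marked genes.

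**Figure D1:**
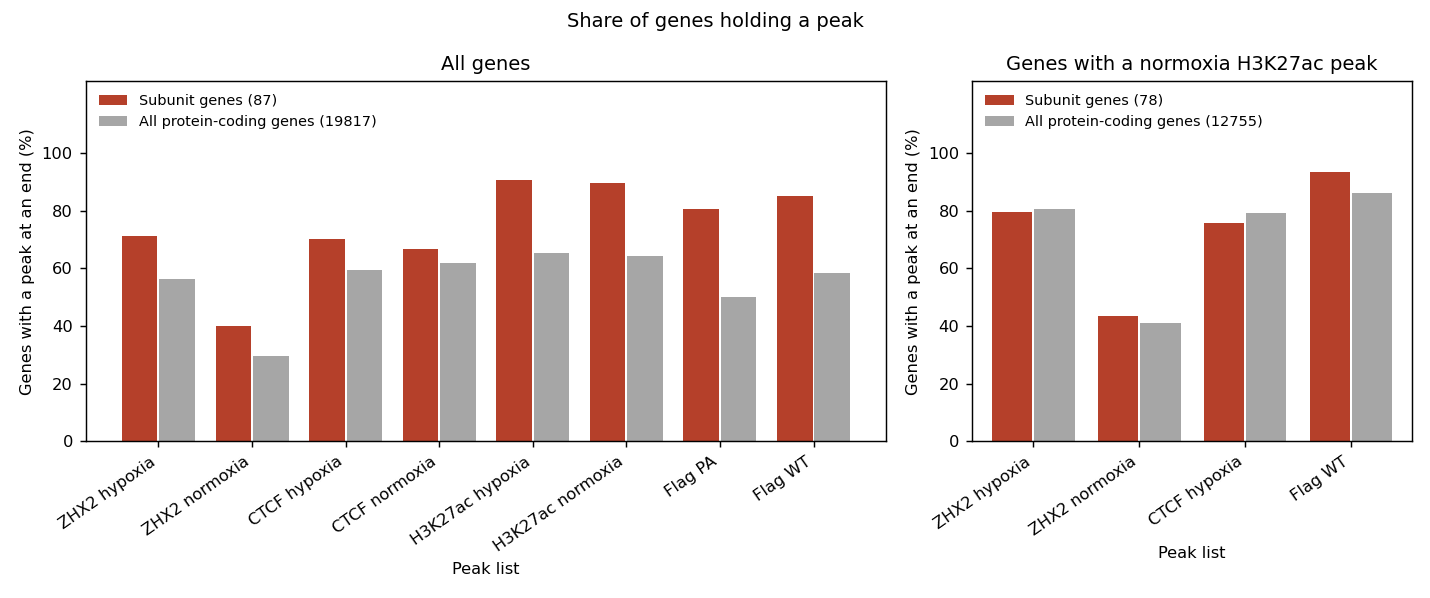
Share of genes (vertical axis, percent) with a peak no more than 1 kb from an end in each of the 8 lists, for subunit genes (red) and all protein-coding genes (grey), over all genes on the left and over genes with a normoxia H3K27ac peak on the right. Subunit genes stand above all genes in every list on the left, by 71.3% to 56.3% for ZHX2 in hypoxia, and close to the grey bars for ZHX2 and CTCF on the right.

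Complex I had 29 of 37 genes with a hypoxia ZHX2 peak, complex II 3 of 4, complex III 8 of 10, complex IV 11 of 18 and complex V 11 of 18. In normoxia the numbers were 18, 2, 4, 5 and 6. Within complex I, hypoxia peaks lay at 10 of 11 NDUFB genes, 7 of 8 NDUFS genes, 3 of 3 NDUFV genes, 1 of 2 NDUFC genes and 8 of 13 NDUFA genes, NDUFAB1 included. Apart from the tissue-restricted isoforms, complex IV had 10 of 12 in hypoxia (83.3%). No difference between complexes was tested.

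**Figure D2:**
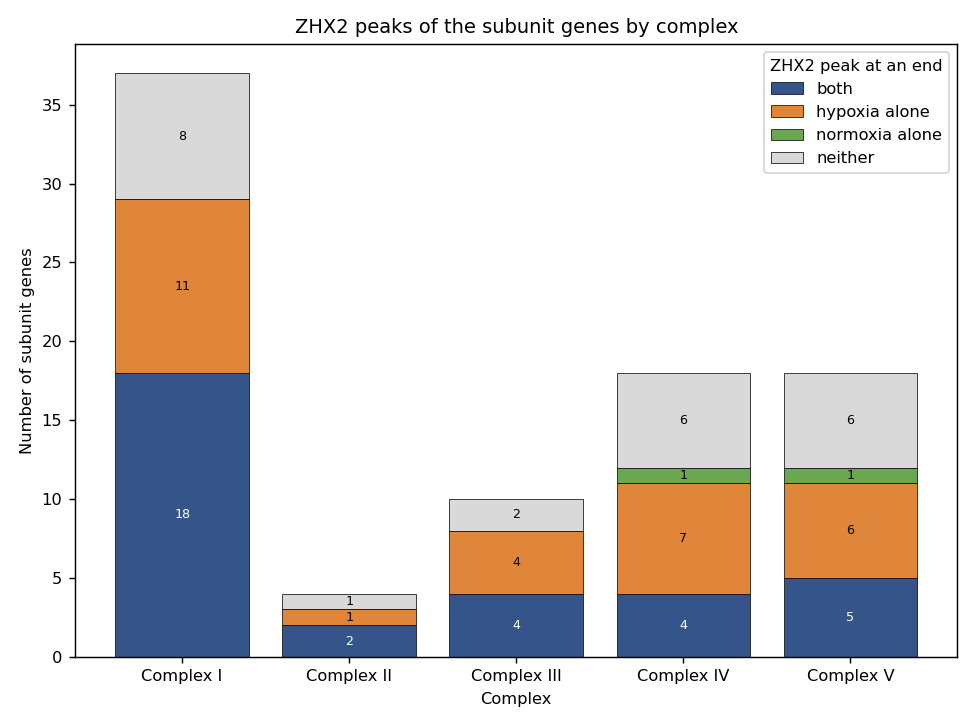
Number of subunit genes in each complex (vertical axis) by the ZHX2 lists with a peak no more than 1 kb from a gene end: both conditions (blue), hypoxia alone (orange), normoxia alone (green) or neither (grey). Complex I has 18 genes with peaks in both conditions and 8 with neither, and complexes IV and V have 6 genes each with neither.

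At annotated gene ends the strongest ZHX2 peaks lay at complex I genes, while ATP5F1A of complex V had a fold of 12.1 in hypoxia at another start site. NDUFS6, a zinc-binding accessory subunit, had a hypoxia fold of 14.1 (chr5:1800983-1802039), at percentile 99.4 of the hypoxia list, and a normoxia fold of 4.95. NDUFS7, a core iron-sulfur subunit next to the ubiquinone site, had a hypoxia fold of 10 at its start (chr19:1383365-1384326) and a normoxia fold of 7.04 at the other end of the gene (chr19:1395148-1395545). NDUFA13, also known as GRIM-19, had a hypoxia fold of 9.13 (chr19:19515800-19516600). Its normoxia fold of 7.04 was at a separate peak that does not overlap that one (chr19:19514087-19515684). NDUFA13 shares its ends with TSSK6 and YJEFN3, so these peaks cannot be given to 1 gene.

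Next in the hypoxia list came COX5A (8.4), a nuclear-encoded subunit of complex IV, and UQCRH (7.93), the hinge protein of complex III. NDUFA6 followed at 7.75, NDUFS4, an accessory subunit whose loss causes Leigh syndrome, at 7.29, and NDUFB6 of the membrane arm at 7.11. UQCRC1, a core protein of complex III, had 6.7 and NDUFA10 had 6.54. Of these 10 genes, UQCRH and NDUFA6 had no normoxia ZHX2 peak at an end. The NDUFB6 peak (chr9:32551664-32552741) lies beyond the end of the gene, and TOPORS has an end within 1 kb of NDUFB6. In normoxia the highest folds at annotated ends after NDUFA13 and NDUFS7 were 5.22 at NDUFA10, 5.14 at NDUFB8 and 4.95 at NDUFS6.

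Over the 62 members with a hypoxia ZHX2 peak, the best fold had a median of 4.46 and a range of 2.39 to 14.1, against a median of 3.97 over the 11151 protein-coding genes with one. The median percentile was 80.2 for members and 71.5 for all such genes. In normoxia the medians over 35 members and 5879 genes were 3.54 and 3.64 in fold, and 59.2 and 63.4 in percentile. By complex, the median hypoxia fold was 4.9 in complex I, 3.61 in II, 4.56 in III, 3.5 in IV and 4.51 in V. Of the members with a hypoxia peak, 17 had a best peak in the upper 10% of the list (27.4%, against 22.2% of all genes with a peak) and 12 in the lower 50% (19.4%, against 28.9%). Members with peaks in both conditions had a median hypoxia percentile of 85.7 (all genes 82.9), and those with hypoxia alone of 64.6 (all genes 59.3).

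**Figure D3:**
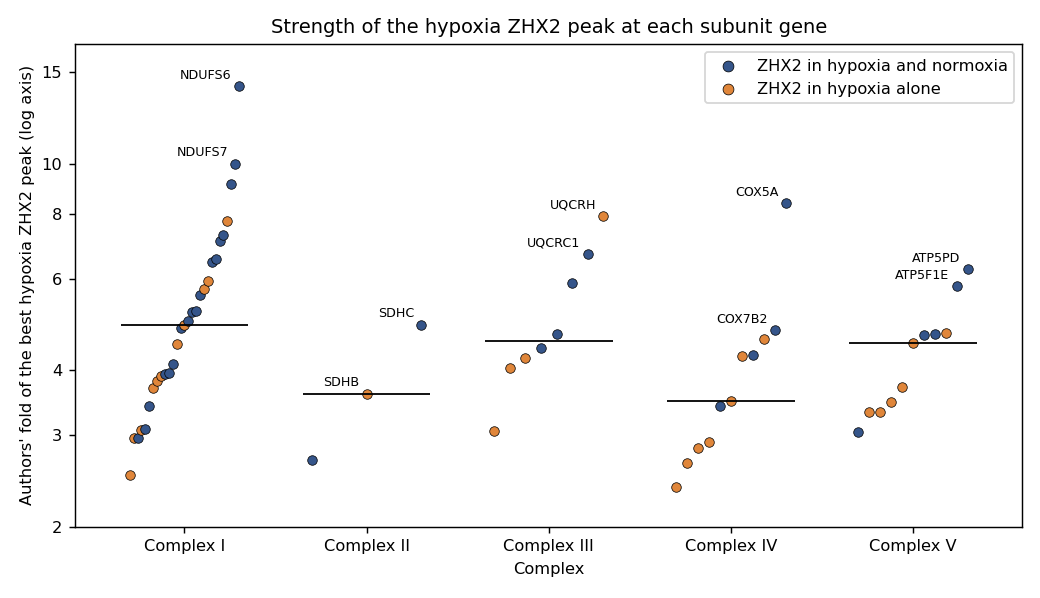
Authors' fold of the best hypoxia ZHX2 peak at each of the 62 subunit genes that hold one (log axis), by complex, with genes that also hold a normoxia peak in blue and those with hypoxia alone in orange. Horizontal lines are medians, from 3.5 in complex IV to 4.9 in complex I, and NDUFS6 is highest at 14.1.

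The 29 genes with ZHX2 in hypoxia alone include subunits of every complex. In complex I they were led by NDUFA6 (7.75), NDUFC2 (5.94), NDUFS5 (5.75) and NDUFB1 (4.9), all accessory subunits. SDHB was the member of complex II in this class, at 3.61. In complex III they were UQCRH (7.93), UQCRQ (4.22), UQCRFS1, the Rieske iron-sulfur protein (4.05), and UQCR10 (3.06). In complex IV the highest were COX6C (4.59), COX6A1 (4.27), COX6B1 (3.5) and COX4I1 (2.91). In complex V the highest of 6 were ATP5F1D, the delta subunit (4.73), ATP5MK (4.51), ATP5F1C, the gamma subunit (3.72), and ATP5F1B, the catalytic beta subunit (3.48). ATP5F1B lies just past the distance used, since its nearest normoxia ZHX2 peak was 1006 bp away, and that of ATP5F1D was 1204 bp away. The best hypoxia ZHX2 peak of ATP5F1B (chr12:56636243-56637275) lies outside the gene, and BAZ2A has an end within 1 kb of ATP5F1B.

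The 2 genes with ZHX2 in normoxia alone were COX6A2, the heart and muscle isoform (3.52), and ATP5PF, coupling factor 6 (2.93). The ATP5PF peak was also within reach of GABPA, which encodes the DNA-binding subunit of GABP. The nearest hypoxia peak was 14135 bp from COX6A2 and 57779 bp from ATP5PF.

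Where members held ZHX2 in both conditions, 29 of 33 had hypoxia and normoxia peaks that overlapped each other. The exceptions were NDUFS1, NDUFB7, NDUFA3 and ATP5MC1. Counted as peaks, 75 distinct hypoxia ZHX2 peaks lay at members, and 33 of them overlapped a normoxia peak (44%, against 40.2% of hypoxia peaks at any gene end). Of 40 normoxia peaks, 34 overlapped a hypoxia peak (85%, against 86.4%).

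ZHX2 summits clustered at gene starts. Among the 70 members with a known strand, 57 hypoxia ZHX2 peaks lay at the start and 6 at the end of the gene. Of the 57, 43 had their summit within 250 bp of the start (75.4%, against 57.1% of start peaks of all genes), with a median distance of 70 bp (all genes 182 bp). In normoxia 20 of 29 did so (69%, against 54.6%), with a median of 117 bp (all genes 215 bp). CTCF summits lay further off in both sets: 31 of 51 within 250 bp in hypoxia (60.8%, against 45.7%) and 24 of 51 in normoxia (47.1%, against 43.3%), with median distances of 195 and 266 bp (all genes 294 and 315 bp).

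**Figure D4:**
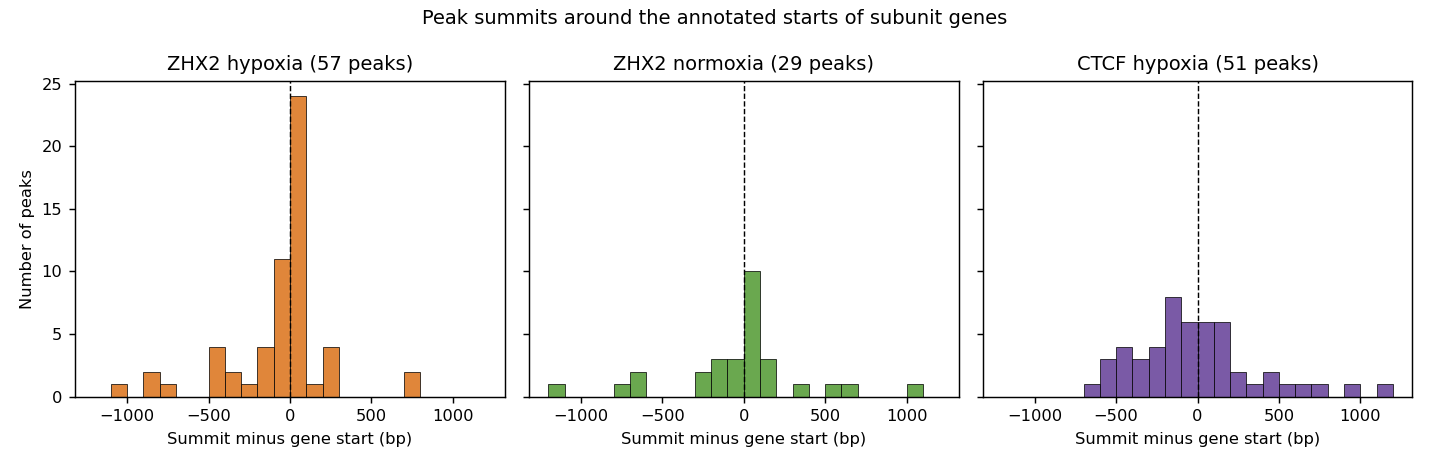
Distance from the annotated start to the summit (horizontal axis, bp, positive into the gene) of peaks at the starts of subunit genes, in bins of 100 bp, for ZHX2 in hypoxia and in normoxia and CTCF in hypoxia; the vertical axis is the number of peaks. ZHX2 summits in hypoxia pile up at the start, with a median distance of 70 bp, while CTCF summits spread more widely, with 195 bp.

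The 23 members without ZHX2 at an end included NDUFA1, NDUFA2, NDUFA5, NDUFA8, NDUFA9, NDUFB4 and NDUFC1 of complex I, SDHD of complex II, UQCR11 and UQCRHL of complex III, COX4I2, COX6B2, COX7A1, COX7A2, COX7A2L and COX8C of complex IV, and ATP5F1A, ATP5MC2, ATP5MC3, ATP5MG, ATP5MGL and ATP5PB of complex V. Of these, 15 had H3K27ac in both conditions and 12 had a WT Flag peak. NDUFA9 stood farthest from ZHX2 in hypoxia, with its nearest hypoxia peak 596109 bp and its nearest normoxia peak 1437179 bp away, although its promoter region had H3K27ac at folds of 8.01 in hypoxia and 9.96 in normoxia. NDUFA1, NDUFB4 and ATP5PB also had H3K27ac, and their nearest hypoxia ZHX2 peaks were 112236, 58830 and 45505 bp away.

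Annotated ends do not cover every start site, and 4 of the 23 held ZHX2 at another RefSeq start. At ATP5F1A, the catalytic alpha subunit, this peak had a hypoxia fold of 12.1 (percentile 99.1) and a normoxia fold of 6.07. COX7A2 had 6.47 in hypoxia and none in normoxia, NDUFA5 had 6.2 in hypoxia and 3.18 in normoxia, and ATP5MC2, which encodes the c subunit of the rotor, had 2.95 in hypoxia and 3.12 in normoxia. Over whole genes with 1 kb on each side, 7 of the 23 had a hypoxia ZHX2 peak and 16 had none in either condition. The 16 include SDHD, a membrane anchor of complex II, UQCR11 and ATP5MG as well as the isoforms COX4I2, COX6B2, COX7A1 and COX8C.

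Complex II has few genes, and they differed. SDHA, the flavoprotein subunit, had ZHX2 folds of 2.69 in hypoxia and 3.61 in normoxia. SDHC, a membrane anchor, had 4.9 in hypoxia and 3.94 in normoxia. SDHB had 3.61 in hypoxia and no normoxia peak, and SDHD had none in either, with the nearest hypoxia peak 12497 bp away. All 4 had H3K27ac in both conditions, and CTCF lay at SDHA, SDHC and SDHD.

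In complex III, CYC1, the cytochrome c1 subunit, had ZHX2 folds of 5.88 in hypoxia and 3.63 in normoxia. UQCRB had 4.41 in hypoxia and 2.25 in normoxia, and UQCRC2 had 4.7 and 2.89. UQCRHL, an intronless copy of the hinge gene whose reads may be hard to tell from those of UQCRH, had no ZHX2 peak and the lowest H3K27ac folds of the complex, 5.27 in hypoxia and 5.83 in normoxia.

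Complex IV holds isoforms restricted to certain tissues. A smaller share of these held a peak than of the rest of the complex in each list but normoxia ZHX2 (33.3%, against 25%). No such difference was tested. Of COX4I2, COX6A2, COX6B2, COX7A1, COX7B2 and COX8C, ZHX2 lay at 1 in hypoxia and at 2 in normoxia, 2 had H3K27ac in each condition, and 0 had a PA or WT Flag peak. Of the other 12 complex IV genes, 10 had ZHX2 in hypoxia and 3 in normoxia, 10 had H3K27ac in each condition, and 10 had a PA and 10 a WT Flag peak. COX4I2, the isoform known to replace COX4I1 in hypoxic cells, had 0 peaks in all 8 lists, over the whole gene as well. COX4I1 had a hypoxia ZHX2 fold of 2.91 (percentile 29.8), no normoxia ZHX2 peak, and H3K27ac folds of 15.3 in hypoxia and 21.6 in normoxia. COX7B2, the testis isoform, had ZHX2 folds of 4.78 in hypoxia and 4.33 in normoxia without CTCF or Flag, and its H3K27ac peak was in normoxia alone (fold 3.11, 551 bp).

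COXFA4, once assigned to complex I as NDUFA4, had a hypoxia ZHX2 fold of 2.65 and no normoxia ZHX2 peak. Its H3K27ac folds were 19.2 in hypoxia and 25.7 in normoxia, and its CTCF peak (4.44) was in normoxia alone. Its relative COXFA4L2, a known target of hypoxia-inducible factors and no subunit of this set, held 2 H3K27ac peaks in hypoxia (best fold 2.95) and 0 in normoxia, and ZHX2 in hypoxia alone (3.15). COXFA4L2 was 1 of 7 listed hypoxia-linked relatives, with COXFA4L3, HIGD1A, HIGD2A, ATP5IF1, LONP1 and ISCU. Of the 7, 5 had H3K27ac in both conditions and 2 in hypoxia alone (28.6%, against 1.45% of all genes). Those in hypoxia alone were COXFA4L2 and COXFA4L3, at low folds of 2.95 and 3.47. The median best fold was 13.3 over all genes with a hypoxia H3K27ac peak. ZHX2 lay at 5 in both conditions (71.4%, against 27.8%) and at 2 in hypoxia alone (28.6%, against 28.5%).

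**Figure D5:**
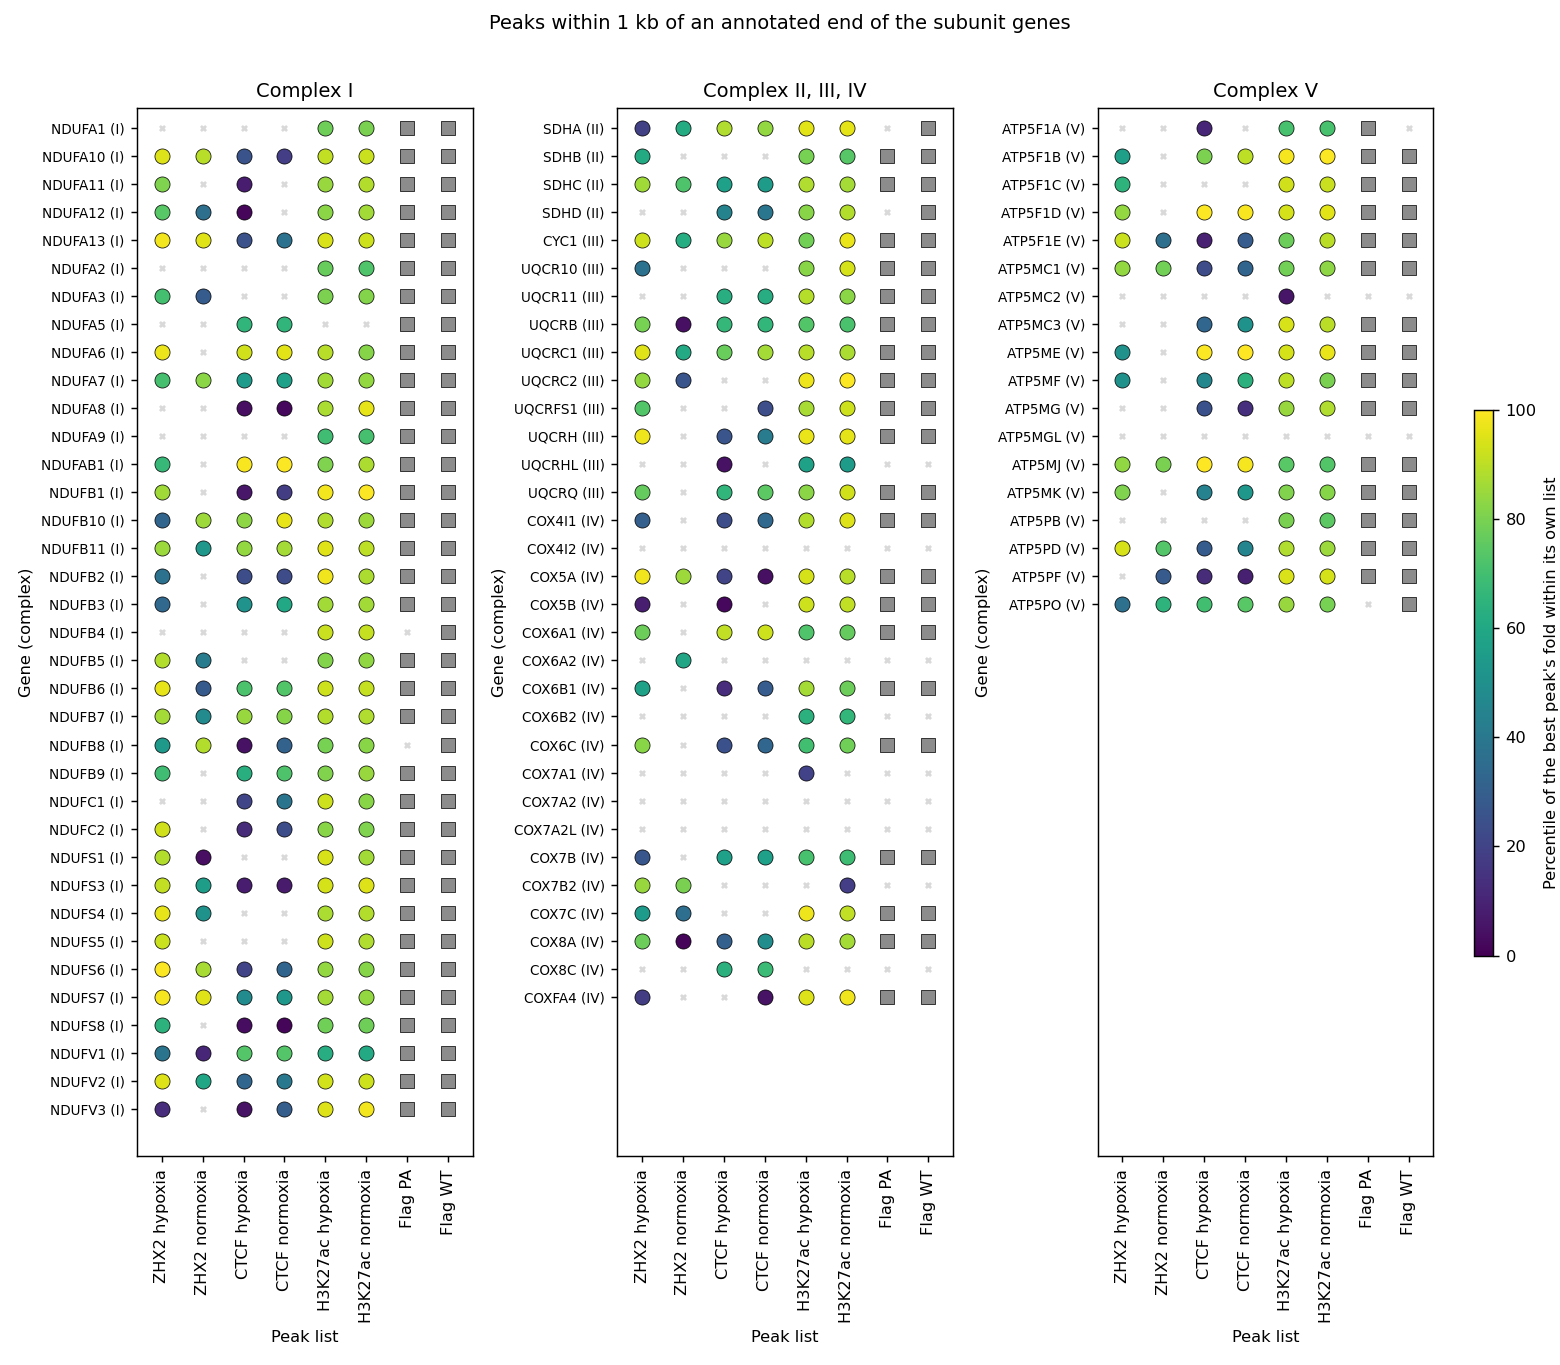
Subunit genes (rows, with their complex) against the 8 peak lists (columns): a circle or square marks a peak within 1 kb of a gene end and a small cross marks none; circle colour is the percentile of the best fold within its own list, and Flag lists, which carry no fold, are grey squares. COX4I2, COX7A2, COX7A2L and ATP5MGL have no mark in any list, and 22 genes have one in all 8. No share of all protein-coding genes is given for the count of 22.

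H3K27ac lay at the same 77 members in both conditions. It lay at 79 members in hypoxia (90.8%, against 65.2% of all protein-coding genes) and 78 in normoxia (89.7%, against 64.4%). COX7A1, the heart and muscle isoform (fold 2.97, 213 bp), and ATP5MC2 (2.59, 341 bp) had it in hypoxia alone (2.3%, against 1.45%), with narrow peaks of low fold, and COX7B2 had it in normoxia alone (1.15%, against 0.58%). The 7 members with none were NDUFA5, COX4I2, COX6A2, COX7A2, COX7A2L, COX8C and ATP5MGL. At another RefSeq start site NDUFA5, COX7A2 and COX7A2L, the last known for its part in respiratory supercomplexes, had H3K27ac in both conditions, with folds of 13.5, 15.1 and 13.4 in hypoxia and of 12.7, 14.2 and 17.5 in normoxia, and ATP5MC2 had it in normoxia there, at 12.3. The hypoxia-alone entry of ATP5MC2 thus holds for its annotated ends only.

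Over members with the mark, the median best fold was 14.2 in hypoxia (all genes 13.3) and 16.2 in normoxia (all genes 14.7), with median percentiles of 86.5 and 86.6. The highest hypoxia folds were at ATP5F1B (25.7 in hypoxia, 30.4 in normoxia) and NDUFB1 (24.1 and 33.5). The hypoxia peak at ATP5F1B (chr12:56627489-56639767) lies mostly outside the gene. BAZ2A has an end within 1 kb of ATP5F1B, and CPSF2 has one within 1 kb of NDUFB1. The widest domain lay over ATP5F1D, 41336 bp in hypoxia and 16159 bp in normoxia, followed in hypoxia by COX8A (15053 bp, against 7022 bp in normoxia) and ATP5F1B (12279 bp, against 11818 bp).

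CTCF peaks lay at 61 members in hypoxia (70.1%, against 59.6%) and 58 in normoxia (66.7%, against 61.9%). Among members with normoxia H3K27ac, 59 of 78 had a hypoxia CTCF peak (75.6%, against 79.1%). CTCF was present in hypoxia alone at NDUFA11 (4.26), NDUFA12 (3.26), UQCRHL (3.77), COX5B (3.35) and ATP5F1A (4.66), 5 genes (5.75%, against 2.86%), and in normoxia alone at UQCRFS1 (7.26) and COXFA4 (4.44), 2 genes (2.3%, against 5.19%). At another RefSeq start ATP5F1A had a normoxia CTCF peak of fold 26, so its entry holds for the annotated ends only. None of the 7 peaks at annotated ends was above the percentile of 23.8 that UQCRFS1 had in the normoxia list. At annotated ends the strongest hypoxia CTCF peaks lay at ATP5MJ (409 in hypoxia, 363 in normoxia), ATP5ME (335 and 514), ATP5F1D (325 and 396) and NDUFAB1, the mitochondrial acyl carrier protein (295 and 418). The ATP5F1D folds were at separate peaks, chr19:1240119-1241168 in hypoxia and chr19:1243736-1245465 in normoxia. ATP5MC2 had CTCF folds of 301 in hypoxia and 612 in normoxia at another RefSeq start. Over members with a hypoxia CTCF peak the median percentile was 32.7 (all genes 47.6), and 35 of 61 had a best peak in the lower 50% of the list (57.4%, against 52.2% of all genes with a peak). In normoxia the median was 52 (all genes 52.8).

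ZHX2 and CTCF peaks overlapped in hypoxia at 46 members (52.9%, against 42.7%). As peaks, 49 of the 75 hypoxia ZHX2 peaks at members overlapped CTCF (65.3%, against 68.8% at all gene ends), and 20 of the 40 normoxia ZHX2 peaks did (50%, against 67.3%). With each peak reduced to 200 bp, the hypoxia overlap held at 29 members. NDUFS4, NDUFS1, NDUFB5 and UQCRC2 were among the members with ZHX2 in both conditions and CTCF in neither.

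Flag peaks lay at 70 members with PA ZHX2 (80.5%, against 50.2% of all genes) and 74 with WT ZHX2 (85.1%, against 58.5%). Among members with normoxia H3K27ac, 73 of 78 held a WT Flag peak (93.6%, against 86.3%). The lists are not independent in form: 15163 of the 16019 PA intervals have the same start and end as a WT interval (94.7%). Widths at members therefore repeat between them, from ATP5F1D (11196 bp) and NDUFB10 (7177 bp) to ATP5F1B (3569 bp), COX6C (3562 bp), NDUFA13 (3489 bp) and ATP5ME (3445 bp), each the same in PA and WT.

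A Flag peak was absent with PA and present with WT at NDUFB4, NDUFB8, SDHA, SDHD and ATP5PO, the oligomycin sensitivity subunit, 5 members (5.75%, against 8.79% of all genes). The WT list held 31278 intervals and the PA list 16019, and how much of this count list length accounts for was not tested. A Flag peak was present with PA and absent with WT at ATP5F1A, 1 member (1.15%, against 0.479%), with a width of 814 bp at an annotated end. At another RefSeq start of ATP5F1A the WT list held a peak as well. Complex II had 2 of 4 genes with a PA Flag peak and 4 of 4 with a WT Flag peak, and the other complexes had 34 and 36 of 37 (I), 9 and 9 of 10 (III), 10 and 10 of 18 (IV) and 15 and 15 of 18 (V). These counts hold for annotated ends only. At another RefSeq start COX7A2 and COX7A2L of complex IV and ATP5MC2 of complex V held a peak in both Flag lists.

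Hypoxia ZHX2 peaks overlapped PA Flag peaks at 58 members (66.7%, against 42.3%) and WT Flag peaks at 61 (70.1%, against 47.5%). COX7B2 was the member with a hypoxia ZHX2 peak and no overlapping WT Flag peak. NDUFB8, SDHA and ATP5PO overlapped WT and not PA. Reduced to 200 bp around summits and midpoints, ZHX2 and WT Flag peaks overlapped at 27 members.

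Many subunit genes lie close to another gene: 39 had an end of another protein-coding gene within 1 kb, in either orientation (44.8%, against 28.6%). Of these, 21 were in complex I. Hypoxia ZHX2 lay at 28 of the 39 (71.8%, against 73.8% of all genes with such a neighbour) and at 34 of the other 48 (70.8%, against 49.3%). Peaks at shared ends cannot be given to 1 of the genes. Examples are NDUFS6 with MRPL36, NDUFB5 with MRPL47, UQCRH with LRRC41, COX4I1 with EMC8, NDUFB1 with CPSF2 and ATP5F1B with BAZ2A.

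Related genes outside the complexes were counted in the same way. Of 49 assembly factors, 39 had ZHX2 in hypoxia and 19 in normoxia, 21 in hypoxia alone, and the highest folds were at COX20 (23.4 in hypoxia, 12.1 in normoxia) and COX19 (10.2 and 9.82). Of 14 citric acid cycle genes, 12 had it in hypoxia and 3 in normoxia, 9 in hypoxia alone, among them DLD (8.09) and IDH3G (7.66). Of 77 mitochondrial ribosomal protein genes, 66 had it in hypoxia and 37 in normoxia, 29 in hypoxia alone. Of 11 regulators of respiratory genes, 9 had ZHX2 in hypoxia and 6 in normoxia, and the highest folds were at YY1 (43.9 in hypoxia, 23.5 in normoxia) and NRF1 (11.7 and 5.61). The hypoxia shares were 79.6% of assembly factors, 85.7% of citric acid cycle genes, 85.7% of ribosomal protein genes and 81.8% of regulators, above the 56.3% of all genes and near the 80.7% of genes with normoxia H3K27ac, which 98% to 100% of each of these lists carried. The normoxia shares were 38.8%, 21.4%, 48.1% and 54.5%, against 29.7% of all genes and 41.1% of genes with normoxia H3K27ac. The shares in hypoxia alone were 42.9%, 64.3%, 37.7% and 36.4%, against 28.5% and 40.9%. None of these lists was compared by a test.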

How the data were processed

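ChIP-seq peaks of T47D cells were analysed as deposited, with 8 lists from 16 immunoprecipitated samples in 8 groups of 2 by their titles. The tools named in the submitters' processing notes are cutadapt, Bowtie2 and MACS2, with the build GRCh38 (hg38). Pooling of samples, use of inputs and read depth are not given in the sources used here. The precision of a peak is therefore unknown. In the deposited ZHX2, CTCF and H3K27ac lists each peak carries the authors' score, fold (a ratio over background) and −log10 q. The score ranked peaks. Flag lists hold positions alone.

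Gene ends came from a RefSeq table of GRCh38.p14 without strand, and peaks within 1 kb of either end were assigned to a gene. Strand and 300 bp promoters came from RefSeq tables: 70 members had a strand and 67 a promoter at the annotated start. Peaks sharing at least 1 bp overlapped. Members and lists were chosen with earlier results of these data known. Genes were named by a rule set with the lists: the highest ZHX2 folds overall and per complex, members without ZHX2 or H3K27ac or with a peak in 1 condition alone, the widest Flag peaks, and genes listed by role. Genes at other start sites, the highest H3K27ac and CTCF folds, examples of shared ends and the named assembly factors and citric acid cycle genes were chosen after their values were seen. The assignment of peaks to genes and the overlap of peaks were tested on simulated peaks, and the other steps were not. Python 3.11.15, pandas 2.3.3, numpy 2.4.6 and matplotlib 3.10.9 were used. Alternatives covered window, gene end, peak width, peak strength, list length and membership. Values of 1 member are not reported here, and it stays in the counts.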

Additional observations from a re-analysis of the deposited data

How the results depend on the processing

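No paired analysis was possible because each group had 1 peak list and no values per sample, and replicates could not be left out for the same reason. Across 12 alternatives, 117 of 141 counts of members stayed within 1.5 times the reported count and 24 moved beyond it. Counts under the alternatives are given here without the same share of all protein-coding genes. They do not show how members compare with other genes at those settings.

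Leaving out members with shared ends kept 48 genes and so lowered every count: ZHX2 34 in hypoxia and 21 in normoxia, 14 in hypoxia alone and 1 in normoxia alone; CTCF 33 and 31; H3K27ac 40 and 40; Flag 36 with PA and 39 with WT, and 3 with WT and no PA; ZHX2 overlapping CTCF 24 and overlapping WT Flag 33. With the upper 50% of each list, 22 members held normoxia ZHX2, 27 hypoxia CTCF and 30 normoxia CTCF. At that cut 1 held ZHX2 in normoxia alone and 18 held overlapping ZHX2 and CTCF. Flag lists were ranked by width there, and 19 members held a WT and no PA Flag peak. Each list was cut to 50% of its own length, and the WT list (31278 intervals) is longer than the PA list (16019). With lists of equal length, 4 members held a WT and no PA Flag peak. With peaks of 200 bp, ZHX2 overlapped CTCF at 29 members and WT Flag at 27. The count of 2 members with ZHX2 in normoxia alone became 1 with a window of 250 bp or a −log10 q of at least 5, and 4 with lists of equal length. The cause of these moves, other than fewer genes or peaks, was not tested. Any listed start site and whole genes were added after seeing the data: over whole genes 69 members held ZHX2 in hypoxia and 40 in normoxia. Read depth is unknown, so the absence of a peak does not show absence of binding.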
